A study of Mus musculus with 12 samples.

Results

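The genes described here encode factors that act on blood vessels: the VEGF ligands Vegfa, Vegfb, Vegfc and Pgf, the VEGF receptor Flt1 and co-receptor Nrp1, the angiopoietins Angpt1 and Angpt2, the angiopoietin-like protein Angptl4, and the vasodilator peptide Adm. They were picked by name as a group with a shared role, with earlier results of these data known, and they are 10 of the 56350 genes in the count table. A gene was tested if 3 or more of the 12 libraries held over 10 counts of it, which 16484 genes and all 10 described here did. Adm reached this in exactly 3 libraries, those of FG-4592-treated osteocytes, so it entered the test only through the condition in which it was high and had to differ there. Flt1 reached it in 5 libraries, all of osteocytes, so the same holds for its comparison of osteocytes with MSCs.

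RNAseq was performed on the mouse line MPC2, a single clone (clone 2) of conditionally immortalized mesenchymal progenitor cells, with 3 libraries from each of 4 conditions. MSCs were undifferentiated MPC2 cells grown at 33 °C, and osteocytes were MPC2 cells held at 37 °C for 3 weeks with β-glycerophosphate and ascorbic acid. Each was given DMSO as vehicle or 50 µmol/L FG-4592 (Roxadustat) for 48 h, and no genetic change separated the conditions. FG-4592 inhibits the HIF prolyl hydroxylases, the oxygen-dependent enzymes that mark HIF transcription factors for degradation, and thereby mimics hypoxia. The comparisons asked how each cell type answered to mimicked hypoxia and whether the answers differed. Osteocytes and MSCs also differed in temperature and media, which cannot be told apart from differentiation.

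VEGF-A is the main signal that draws new vessels into a tissue, and its gene is a classical HIF target. It signals through the receptor tyrosine kinases KDR (VEGFR2) and FLT1 (VEGFR1). PlGF, the product of Pgf, and VEGF-B bind FLT1, VEGF-C acts mainly on lymphatic endothelium through FLT4, and neuropilin-1 presents VEGF-A to KDR. Angiopoietin-1 activates the endothelial receptor TEK and stabilizes vessels, whereas angiopoietin-2 is best known as its context-dependent antagonist. In bone, VEGF made by cells of the osteoblast lineage couples vessel growth to bone formation.

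HIF dimers bind the core sequences ACGTG and GCGTG, of which the former is also part of the CACGTG box of other factors. The 250 bases before the annotated start were read from RefSeq (GRCm38.p6) for 7 of the 10 genes, in 9 windows, and were searched on both strands. They are shown for Vegfa and Adm, which rose in osteocytes, and for Vegfb, which rose less. Capitals mark a core, which reads CACGT or CACGC where it lies on the other strand. The windows are chr17:46032378-46032627 on the minus strand for Vegfa, chr19:6987652-6987901 on the minus strand for Vegfb and chr7:110627407-110627656 on the plus strand for Adm.
Vegfa: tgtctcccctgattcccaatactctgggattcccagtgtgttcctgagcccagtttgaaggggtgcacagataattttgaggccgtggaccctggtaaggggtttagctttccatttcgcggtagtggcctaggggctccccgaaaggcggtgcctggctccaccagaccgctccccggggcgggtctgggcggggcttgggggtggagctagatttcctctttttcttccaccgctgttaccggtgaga
Vegfb: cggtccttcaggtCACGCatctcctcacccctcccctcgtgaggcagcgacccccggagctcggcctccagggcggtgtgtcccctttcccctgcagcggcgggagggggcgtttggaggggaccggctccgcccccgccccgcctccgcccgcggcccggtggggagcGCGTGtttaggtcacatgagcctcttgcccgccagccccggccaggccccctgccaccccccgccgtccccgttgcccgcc
Adm: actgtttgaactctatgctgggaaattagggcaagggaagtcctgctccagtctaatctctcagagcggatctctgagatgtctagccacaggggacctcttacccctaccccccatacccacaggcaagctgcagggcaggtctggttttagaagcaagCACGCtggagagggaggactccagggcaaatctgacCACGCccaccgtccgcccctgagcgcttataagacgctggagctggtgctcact
Adm held a core that began 54 bases and another that began 90 bases before its start, and Vegfb held 1 at 81 and 1 at 237 bases. The Vegfa window shown held none, whereas a second one, before an internal start at chr17:46025164-46025413 inside exons of the gene, held 1 core of each kind. A core was found in 6 of the 9 windows, and in 4 of the 6 that lay outside annotated exons, compared with 38.6% of 32851 windows of all genes (16.6% for ACGTG and 28.2% for GCGTG). A match of letters shows neither binding nor its absence.

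The libraries held 52829185 to 68108470 counts, so that a floor of 3 counts corresponded to 0.0447 to 0.0545 CPM (counts relative to the TMM-scaled library total). The glycolysis and mitophagy genes Slc2a1, Pdk1 and Bnip3 rose with FG-4592 in both cell types, by log2 values from 3.36 to 4.87. Egln3, the last of the 4 treatment check genes and a HIF prolyl hydroxylase gene, rose in osteocytes (0 to 33 counts with vehicle and 879 to 1051 with FG-4592) and had at most 1 count in any MSC library. The osteocyte genes Dmp1 (1.19 ± 0.62 CPM in vehicle-treated MSCs and 11.2 ± 2.3 in vehicle-treated osteocytes, SD, n = 3), Phex and Bglap were called higher in vehicle-treated osteocytes than in vehicle-treated MSCs. These were 3 of 7 testable osteocyte and osteoblast markers, where 9.83% of all genes were called higher. Ibsp (59.6 ± 4.5 and 35.6 ± 1.6 CPM) and Alpl (76.6 ± 7.1 and 61.0 ± 3.2 CPM) were lower in vehicle-treated osteocytes by less than 2-fold, Sp7 was higher by less than 2-fold, and Col1a1 did not pass the FDR. The markers Sost, Mepe and Pdpn, however, had at most 2 counts in any library, and Sost had 0. With FG-4592, 4 of these 7 markers were called down in each cell type, among them Phex in osteocytes (57.6 ± 6.3 to 2.83 ± 0.87 CPM). Of 8 mesenchymal progenitor markers, 7 could be tested. In vehicle-treated osteocytes 2 were called higher and 1 lower than in vehicle-treated MSCs. The list summed to 1454 to 1486 CPM in vehicle-treated MSCs and 2235 to 2274 in vehicle-treated osteocytes. With FG-4592, 2 were called down and 0 up in MSCs, among them Vcam1 (25.1 ± 1.0 to 7.20 ± 0.29 CPM). In osteocytes 0 were called down and 1 up, Ly6a (55.8 ± 10.1 to 320 ± 19 CPM). The part of these markers in the results below was not tested. Of the 13 endothelial and mural markers, Cdh5, Emcn, Cldn5, Tie1, Sox17 and the VEGF receptor Kdr had at most 1 count in every library. Others were detected at low levels, with 45 to 104 counts per library for Vwf, 5 to 126 for Tek, 1 to 33 for Pecam1 and 0 to 27 for Erg. Of the 6 that could be tested, 3 (Tek, Pecam1 and the mural gene Rgs5) were called higher in vehicle-treated osteocytes than in vehicle-treated MSCs and 1 (Cspg4) lower. The summed list ran from 38.4 to 39.8 CPM in vehicle-treated MSCs, 41.8 to 47.6 in the treated MSCs, and in osteocytes from 20.5 to 23.9 with vehicle and 38.2 to 43.3 with FG-4592, most of it from Cspg4, which mesenchymal cells also express. With FG-4592 in osteocytes, Cspg4 was called up (14.0 ± 1.4 to 36.7 ± 2.6 CPM) and Rgs5 down (5.19 ± 0.04 to 1.22 ± 0.47 CPM). In MSCs 1 of the list was called up (Tek) and 0 down. The blood list summed to 8.72 to 8.88 CPM in vehicle-treated MSCs and 2.84 to 4.30 in the treated MSCs. In osteocytes it summed to 17.4 to 20.2 CPM with vehicle and 9.43 to 11.5 with FG-4592. Lyz2 had the highest mean level of the list in each condition. It stood at 7.10 ± 0.41 and 1.78 ± 0.50 CPM in MSCs with vehicle and with FG-4592, and at 17.5 ± 1.5 and 9.64 ± 0.84 in osteocytes. In each condition 6 of the 9 genes were at or under the floor, but not the same 6 in both cell types. Cells of a type and RNA per cell cannot be told apart in these bulk libraries.

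Of these 10 genes, FG-4592 raised Vegfa and Angptl4 by more than 2-fold in both cell types and Pgf, Angpt2 and Adm in osteocytes, and it lowered none by more than 2-fold. Calls required a false discovery rate (FDR) below 0.05 together with a change of over 1 on the log2 scale. In MSCs, 2 of the 10 genes were called up, Vegfa and Angptl4, where 4.12% of all genes tested were called up, and 0 were called down, where 5.17% were. In osteocytes, 5 were called up, namely Vegfa, Pgf, Angptl4, Angpt2 and Adm, where 6.25% of all genes were, and 0 were called down, where 4.26% were. Of these 5, Adm entered the test only through FG-4592-treated osteocytes and had to differ there. A further 5 genes in MSCs (Vegfb and Nrp1 up, Vegfc, Pgf and Angpt1 down) and 3 in osteocytes (Vegfb and Nrp1 up, Angpt1 down) passed the FDR but not the 2-fold limit. By the FDR alone, in either direction, 38.1% of all genes passed in MSCs and 43.8% in osteocytes. The difference between the responses (log2 response in osteocytes minus that in MSCs) was called for Vegfa and Pgf, both greater in osteocytes, where 3.94% of all genes were called in this direction and 1.07% in the other.

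**Figure D1:**
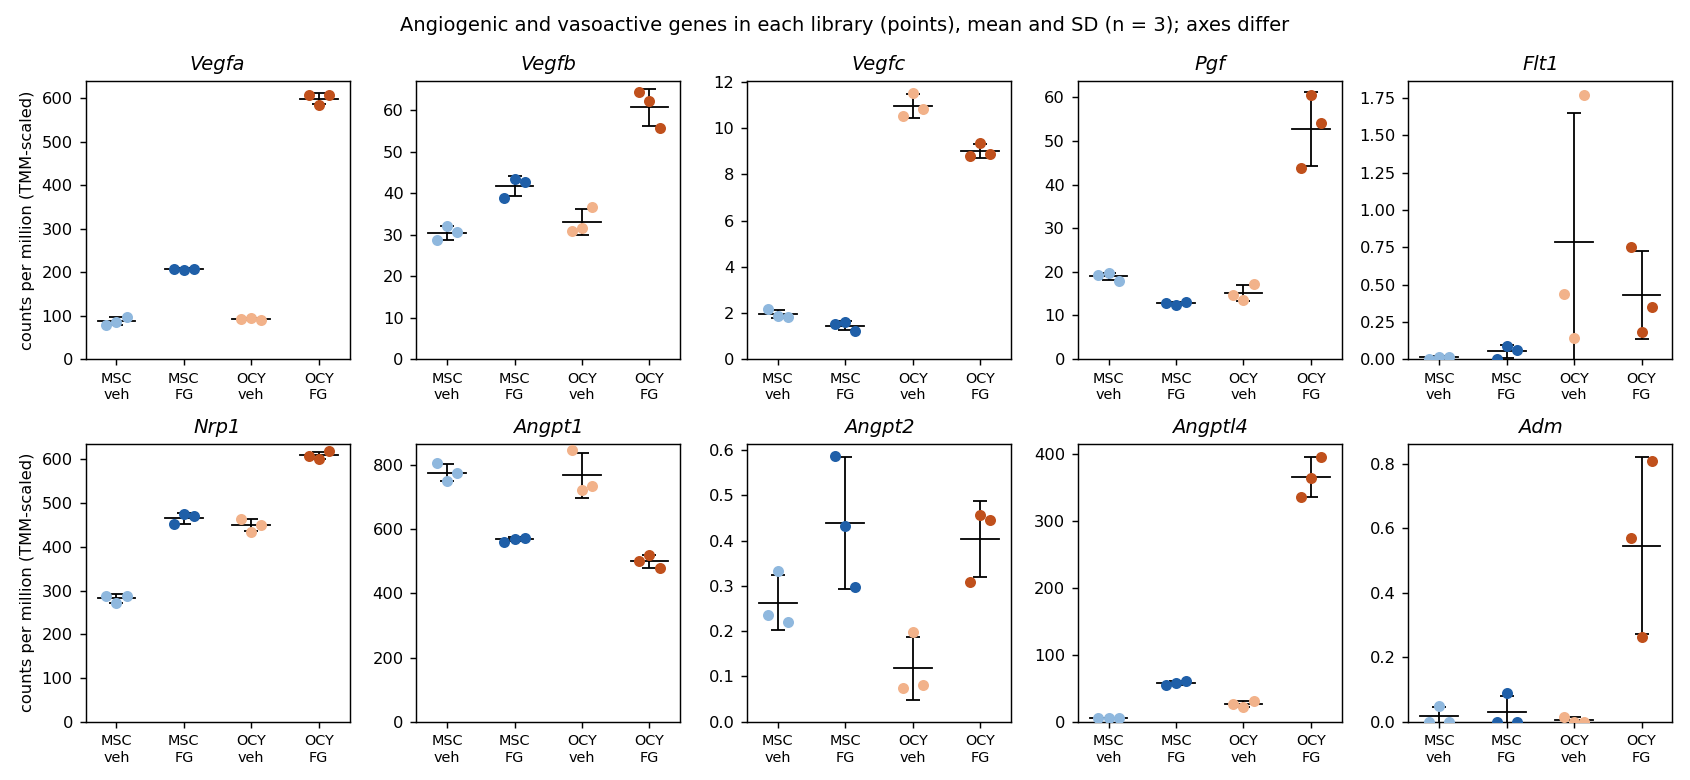
Levels in CPM of the 10 genes in each library (points), with the mean and SD of 3 libraries, in MSCs and osteocytes (OCY) given vehicle (veh) or FG-4592 (FG). Each panel has its own linear axis from 0; Vegfa, Vegfb, Pgf, Nrp1, Angptl4 and Adm are highest in all 3 libraries of FG-4592-treated osteocytes, and Flt1, Angpt2 and Adm stay under 2 CPM.

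Vegfa (ENSMUSG00000023951.17, mm10 chr17:46016993-46032369, minus strand) rose with FG-4592 in both cell types and rose further in osteocytes, from vehicle levels that were not distinguished. It had 4317, 5149 and 6192 counts in vehicle-treated MSCs and 12396, 13685 and 13236 in FG-4592-treated MSCs. In osteocytes, the counts were 6133, 5211 and 5510 with vehicle and 39397, 35710 and 36823 with FG-4592. Every treated library lay above every vehicle library of its cell type, and the treated osteocytes lay above all others. Levels went from 87.2 ± 9.5 to 206 ± 2 CPM in MSCs (SD, n = 3; log2 fold change 1.24 ± 0.06 SE, FDR = 1.63e-10). In osteocytes they went from 91.9 ± 2.1 to 599 ± 13 CPM (log2 fold change 2.71 ± 0.06, FDR = 1.26e-14). The response in osteocytes exceeded that in MSCs by 1.47 ± 0.09 on the log2 scale (FDR = 1.05e-08, a ratio of fold changes of 2.76). Vehicle-treated osteocytes and MSCs were not distinguished (log2 difference 0.07, 95% interval -0.06 to 0.21, FDR = 0.339), but without replicate 3 of vehicle-treated MSCs the difference was 0.20 (FDR = 0.00692).

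Pgf (ENSMUSG00000004791.7, chr12:85166635-85177790, minus strand), which encodes placental growth factor, fell in MSCs and rose in osteocytes. In MSCs its counts were 1055, 1179 and 1141 with vehicle and 766, 838 and 838 with FG-4592. In osteocytes they were 978, 757 and 1054 with vehicle and 2845, 3709 and 3273 with FG-4592. The vehicle and treated libraries did not overlap in CPM in either cell type. Pgf fell in MSCs from 18.9 ± 0.9 to 12.8 ± 0.3 CPM (log2 fold change -0.56 ± 0.11, FDR = 0.000597). It rose in osteocytes from 15.2 ± 1.8 to 52.8 ± 8.5 CPM (log2 fold change 1.80 ± 0.11, FDR = 1.17e-09). The difference between the responses was 2.36 ± 0.15 (FDR = 2.64e-08, a ratio of fold changes of 5.15). This was the largest such difference among the 8 genes above the counting floor in every condition.

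Vegfb (ENSMUSG00000024962.13, chr19:6982473-6987651, minus strand), an FLT1 ligand tied to fatty acid handling more than to vessel sprouting, rose in both cell types by less than 2-fold. It had 1584, 1920 and 1950 counts in vehicle-treated MSCs and 2318, 2923 and 2737 in FG-4592-treated MSCs. The osteocyte libraries had 2051, 1766 and 2256 with vehicle and 4186, 3803 and 3378 with FG-4592. The treated libraries lay above the vehicle libraries in CPM in each cell type. The log2 fold change was 0.45 ± 0.08 in MSCs (FDR = 0.00022) and 0.88 ± 0.08 in osteocytes (FDR = 1.35e-07). The responses differed by 0.42 ± 0.11 (FDR = 0.00974), and without replicate 2 of vehicle-treated MSCs the FDR of this difference was 0.0535.

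Vegfc (ENSMUSG00000031520.6, chr8:54077606-54187096, plus strand), the lymphangiogenic ligand, differed between the cell types in both treatments, and no rise with FG-4592 was seen. Counts were 119, 111 and 117 in vehicle-treated MSCs and 90, 108 and 79 in FG-4592-treated MSCs. The osteocyte libraries had 700, 642 and 667 with vehicle and 573, 574 and 539 with FG-4592. All osteocyte libraries lay above all MSC libraries. Osteocytes exceeded MSCs by 2.49 ± 0.13 on the log2 scale in vehicle (FDR = 1.38e-10) and by 2.64 ± 0.13 in FG-4592 (FDR = 6.68e-11). With FG-4592 the log2 fold change was -0.42 ± 0.14 in MSCs (FDR = 0.0241) and -0.28 ± 0.12 in osteocytes (FDR = 0.0638). The fall in MSCs was not past the FDR without replicate 1 of vehicle-treated MSCs (0.126), without replicate 3 of FG-4592-treated MSCs (0.104) or with no filter on low counts (0.0829). In osteocytes the FDR was 0.0397 in DESeq2, 0.0138 with library size alone, and 0.0451 and 0.0434 without those same MSC libraries.

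**Figure D2:**
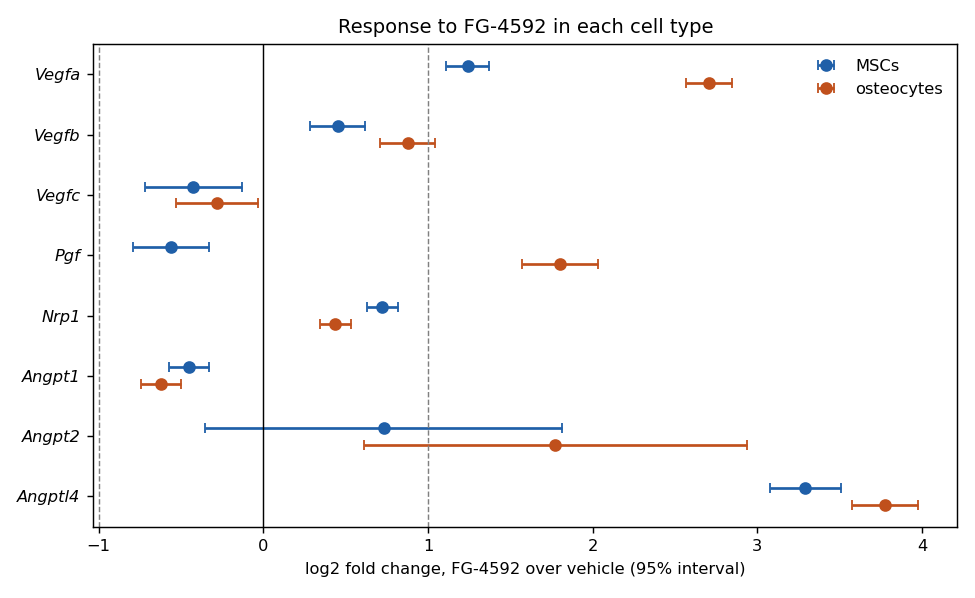
Log2 fold change of FG-4592 over vehicle in MSCs (blue) and osteocytes (orange) with 95% intervals, for the 8 genes above the counting floor in every condition; dashed lines mark a log2 value of 1 in either direction. Vegfa stands at 1.24 and 2.71, and Pgf at -0.56 and 1.80 on either side of 0.

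To compare the ligands with each other, counts were divided by the exonic length of each gene, and Vegfd, the remaining ligand of the family, was added. The summed level of the 5 ligands was 59.5 ± 3.1 CPM per kb in vehicle-treated MSCs and 54.5 ± 2.4 in vehicle-treated osteocytes (SD, n = 3). It was 90.3 ± 1.1 in FG-4592-treated MSCs and 209 ± 2 in FG-4592-treated osteocytes, with no overlap between vehicle and treated libraries. Vegfa made up 34.1% ± 2.0 of this sum in vehicle-treated MSCs and 53.3% ± 1.1 in the treated MSCs. In osteocytes it made up 39.4% ± 2.5 with vehicle and 67.0% ± 1.3 with FG-4592. The share of Vegfb went from 37.8% ± 1.9 to 18.1% ± 1.2 in osteocytes although its level rose. Vegfd held 21.6% ± 0.8 and 12.4% ± 0.2 in MSCs with vehicle and with FG-4592, and 5.05% ± 0.46 and 4.35% ± 0.53 in osteocytes. Vegfc held 8.23% ± 0.54 in vehicle-treated osteocytes and 1.77% ± 0.07 in FG-4592-treated osteocytes. Pgf held 10.99% ± 0.96 and 4.89% ± 0.13 in MSCs with vehicle and with FG-4592, and 9.56% ± 0.78 and 8.72% ± 1.46 in osteocytes. Shares are given as a description and were not tested.

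**Figure D3:**
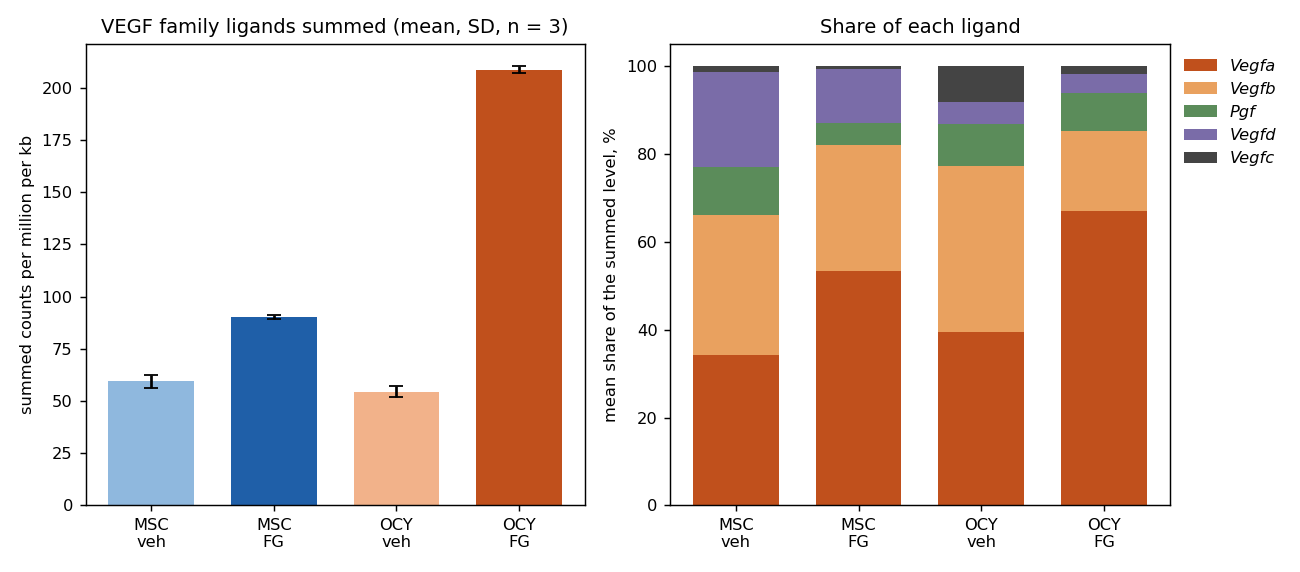
Left, summed level of Vegfa, Vegfb, Vegfc, Vegfd and Pgf in CPM per kb of exonic length (mean, SD, n = 3) in MSCs and osteocytes (OCY) given vehicle (veh) or FG-4592 (FG). Right, mean share of each ligand in that sum; Vegfa goes from 39.4% to 67.0% in osteocytes and from 34.1% to 53.3% in MSCs.

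Nrp1 (ENSMUSG00000025810.9, chr8:128358604-128503363, plus strand), the co-receptor, was abundant in every condition. It had 15829, 16222 and 18344 counts in vehicle-treated MSCs and 26920, 31879 and 30118 in FG-4592-treated MSCs. The osteocyte libraries had 30821, 24206 and 27740 with vehicle and 39472, 36819 and 37474 with FG-4592. Vehicle-treated MSCs were lowest at 282 ± 10 CPM and treated osteocytes highest at 609 ± 8 CPM, with treated MSCs (466 ± 12) and vehicle-treated osteocytes (450.0 ± 15, SD, n = 3) between them. Nrp1 rose with FG-4592 by 0.72 ± 0.04 in MSCs (FDR = 1.97e-09) and by 0.44 ± 0.04 in osteocytes (FDR = 5.74e-07). Its response was smaller in osteocytes (difference -0.29 ± 0.06, FDR = 0.00309), the reverse of Vegfa and Pgf. It shares 80 exonic bases with Mir1903, which had 0 counts.

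Flt1 (ENSMUSG00000029648.13, chr5:147561604-147726011, minus strand), the receptor for VEGF-A, VEGF-B and PlGF, was close to the floor. Its counts were 0, 1 and 1 in vehicle-treated MSCs and 0, 6 and 4 in FG-4592-treated MSCs. The osteocyte libraries had 29, 8 and 109 with vehicle and 49, 11 and 21 with FG-4592. The osteocyte libraries were above those of MSCs but spread widely, with replicate 3 of vehicle-treated osteocytes the highest. The 146 counts in vehicle-treated osteocytes against 2 in vehicle-treated MSCs gave a ratio of 71.0 (95% counting interval 19.3 to 592, exact binomial), and edgeR called the gene (FDR = 0.000696), which had passed the minimum for testing only through osteocyte libraries. Replicate 3 of vehicle-treated osteocytes held 109 of these counts, and without it the ratio was 27.1 (6.98 to 232), an alternative chosen after seeing the data. With any other library left out the ratio was 49.1 to 96.3. In FG-4592 the log2 difference was 3.00 ± 0.98 (FDR = 0.0165), and the call was lost without replicate 1 of FG-4592-treated MSCs (0.0557) or of FG-4592-treated osteocytes (0.0839). No response to FG-4592 was detected in osteocytes (log2 fold change -0.87, 95% interval -2.58 to 0.83, FDR = 0.418), and without replicate 3 of vehicle-treated osteocytes its sign turned (0.54). In MSCs 10 against 2 counts gave a ratio of 4.68 (0.997 to 43.9), an interval that just includes 1. This interval covers counting error only, and edgeR, which uses the spread between libraries, did not call the gene (FDR = 0.317). With 1 library left out the ratio ran from 2.89 (0.414 to 31.9, without replicate 2 of FG-4592-treated MSCs) to 6.81 (1.45 to 63.9, without replicate 1). Among the endothelial and mural markers, Tek had 5 to 11 counts in vehicle-treated MSCs and 35 to 107 in vehicle-treated osteocytes, Pecam1 1 to 10 and 15 to 21, Rgs5 14 to 20 and 286 to 346, Esam 0 to 10 and 7 to 14, and Erg 0 and 6 to 27. Cspg4 was called lower in the osteocytes (36.7 ± 0.7 and 14.0 ± 1.4 CPM), and Vwf had 75 to 104 counts in vehicle-treated MSCs and 45 to 83 in vehicle-treated osteocytes (log2 difference -0.48, FDR = 0.164). Cdh5, Emcn, Cldn5, Kdr, Tie1 and Sox17 had at most 1 count. The part of these markers in the Flt1 result was not tested.

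Angpt1 fell with FG-4592 in both cell types, whereas Angpt2, which was rare, rose in osteocytes. Angpt1 (ENSMUSG00000022309.9, chr15:42424723-42676977, minus strand) had 44324, 44897 and 49282 counts in vehicle-treated MSCs and 33466, 38277 and 36694 in FG-4592-treated MSCs. In osteocytes it had 56302, 40148 and 45086 counts with vehicle and 32443, 31747 and 29081 with FG-4592. After scaling, every treated library lay below every vehicle library of its cell type. Angpt1 fell by 0.45 ± 0.06 in MSCs (FDR = 1.01e-05) and by 0.62 ± 0.06 in osteocytes (FDR = 2.19e-07) on the log2 scale, and these responses were not distinguished (difference -0.17, 95% interval -0.34 to 0.00245, FDR = 0.148), except without replicate 2 of vehicle-treated osteocytes (-0.26, FDR = 0.0310). It shares 737 exonic bases with the antisense gene Gm17473, which had at most 191 counts and could not be told apart there, since counting used no strand.

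Angpt2 (ENSMUSG00000031465.6, chr8:18690263-18741562, minus strand), stored and released by activated endothelium, had few reads. Its counts were 13, 20 and 14 in vehicle-treated MSCs and 35, 29 and 19 in FG-4592-treated MSCs. The osteocyte libraries had 5, 11 and 5 with vehicle and 20, 28 and 27 with FG-4592. The treated and vehicle libraries overlapped in MSCs (log2 fold change 0.73 ± 0.51, FDR = 0.289) and were separate in osteocytes (1.77 ± 0.55, FDR = 0.0149). Without replicate 1 of vehicle-treated osteocytes the FDR was 0.0603, and the responses were not distinguished (difference 1.04, 95% interval -0.54 to 2.62, FDR = 0.349). Per kb, Angpt1 exceeded Angpt2 2168 ± 500.9-fold in vehicle-treated MSCs and 994 ± 349-fold in FG-4592-treated MSCs. In osteocytes this ratio was 5654 ± 2772 with vehicle and 906 ± 212 with FG-4592 (SD, n = 3), and the few Angpt2 counts limit its precision.

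Angptl4 (ENSMUSG00000002289.16, chr17:33773750-33781830, minus strand), a secreted inhibitor of lipoprotein lipase that also acts on endothelium, had the largest fold rise in both cell types among the genes above the floor. Its counts were 327, 370 and 355 in vehicle-treated MSCs and 3308, 3847 and 3862 in FG-4592-treated MSCs. The osteocyte libraries had 1786, 1247 and 1883 with vehicle and 21808, 22261 and 23957 with FG-4592. The 4 conditions did not overlap. FG-4592 raised it 9.79-fold in MSCs, from 5.90 ± 0.30 to 57.7 ± 2.4 CPM (log2 fold change 3.29 ± 0.10, FDR = 3.80e-13). It rose 13.7-fold in osteocytes, from 26.6 ± 4.1 to 365 ± 30 CPM (log2 fold change 3.77 ± 0.09, FDR = 2.19e-14). Osteocytes were already higher in vehicle, by 2.18 ± 0.10 on the log2 scale (FDR = 3.28e-11). The responses differed by 0.48 ± 0.13 (FDR = 0.0133), and without replicate 2 of vehicle-treated MSCs the FDR was 0.0592.

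Adm (ENSMUSG00000030790.15, chr7:110627661-110629820, plus strand), the gene of the vasodilator adrenomedullin and a known hypoxia-inducible transcript, was detected mainly in FG-4592-treated osteocytes. These libraries had 37, 16 and 49 counts. Vehicle-treated osteocytes had 1, 0 and 0, vehicle-treated MSCs 0, 3 and 0, and FG-4592-treated MSCs 0, 6 and 0. The sum of 102 against 1 count in osteocytes gave a ratio of 100.3 (95% counting interval 17.6 to 3999, exact binomial), and edgeR called the gene (FDR = 0.00111). Adm had passed the minimum for testing only through the FG-4592-treated osteocyte libraries and had to differ there. Without replicate 3 of vehicle-treated osteocytes the ratio was 66.7 (11.7 to 2659), also computed after seeing the data, and without replicate 1, which held the only vehicle count, it has no upper limit (102 against 0 counts). In MSCs, 6 against 3 counts gave 1.87 (0.4 to 11.6), and each sum came from a single library, so the ratio rests on those. Its level in treated osteocytes was 0.547 ± 0.274 CPM, or 0.338 ± 0.169 CPM per kb of exonic length (SD, n = 3). The difference between the responses had an FDR of 0.101, and 0.0359 in DESeq2, 0.0364 with no filter and 0.0205 without replicate 2 of FG-4592-treated MSCs. Adm did not meet the minimum for testing when any library of FG-4592-treated osteocytes was left out.

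In vehicle, Vegfc, Angptl4 and Flt1 were higher in osteocytes than in MSCs, and in FG-4592 Vegfa, Pgf and Adm were as well. Flt1 and, in FG-4592, Adm entered these comparisons only through osteocyte libraries and had to differ there. In vehicle, 3 of the 10 were called higher in osteocytes, where 9.83% of all genes were, and 0 lower, where 6.08% were. Nrp1 (0.67 ± 0.04, FDR = 2.63e-09) was higher and Pgf (-0.32 ± 0.11, FDR = 0.0213) lower by less than 2-fold, and 51% of all genes passed the FDR alone. The FDR of Pgf ran from 0.0746 to 0.139 without replicate 1 or 2 of vehicle-treated MSCs or of vehicle-treated osteocytes. In FG-4592, 6 were called higher in osteocytes, where 12.6% of all genes were, and 0 lower, where 5.64% were. Vegfb and Nrp1 were higher and Angpt1 lower by less than 2-fold (Angpt1 -0.19, FDR = 0.0115, and 0.0524 without replicate 3 of FG-4592-treated osteocytes), where 55.8% of all genes passed the FDR alone. For the difference between the responses, 24.3% of all genes and 5 of the 10 passed it. The comparisons of treatment and of cell type share libraries, so they are not independent.

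The order of the genes by level per kb changed with FG-4592 in both cell types. Angpt1 was the most abundant in vehicle-treated MSCs (149 ± 5 CPM per kb), vehicle-treated osteocytes (147 ± 13) and FG-4592-treated MSCs (109 ± 1). In FG-4592-treated osteocytes Vegfa led with 140 ± 3 CPM per kb, followed by Angptl4 (103 ± 8) and Angpt1 (95.9 ± 3.7), whose libraries overlapped. Nrp1 (62.3 ± 0.9), Vegfb (37.9 ± 2.8), Pgf (18.2 ± 2.9) and Vegfc (3.69 ± 0.13) came next without overlap. In the vehicle conditions, Vegfa and Vegfb were next to each other with overlapping libraries, at 20.4 ± 2.2 and 19.0 ± 1.0 CPM per kb in MSCs and at 21.4 ± 0.5 and 20.6 ± 2.0 in osteocytes. In FG-4592-treated MSCs, Vegfa (48.1 ± 0.5) and Nrp1 (47.6 ± 1.3) overlapped below Angpt1. Pgf was above Angptl4 in vehicle-treated MSCs (6.52 ± 0.31 and 1.67 ± 0.085 CPM per kb) and below it in FG-4592-treated MSCs (4.41 ± 0.105 and 16.3 ± 0.68), without overlap.

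Outside these 10 genes, 97 further genes in 6 lists of vessel-related ligands, receptors, vasoactive genes, other angiogenic factors and inhibitors were examined, of which 70 could be tested. In MSCs 9 were called up and 11 down (12.9% and 15.7%), with a median log2 fold change of -0.02 (-0.05 with genes at the floor set to their bound) against -0.05 over all genes. In osteocytes 17 were called up and 10 down (24.3% and 14.3%), with a median of 0.19 in both forms against 0.00154. The background shares are those given above for each comparison. The response was called greater in osteocytes for 9 of the 70 (12.9%) and smaller for 0.

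Among 8 further VEGF and angiopoietin ligands, 4 could be tested, and 1 was called up and 1 down in osteocytes. Vegfd, a lymphangiogenic ligand, rose in osteocytes from between 340 and 473 to between 1179 and 1615 counts (log2 fold change 1.72, FDR = 1.42e-09), whereas in MSCs it stood at 1654 to 2088 and 1607 to 1812 counts (-0.20, FDR = 0.124). Angpt4, a TEK ligand, fell in both, by 1.91 in MSCs and by 1.38 in osteocytes on the log2 scale, so that 2 of the 3 angiopoietin genes fell. Of 14 receptors and semaphorin partners, 11 could be tested. There 1 was called up and 1 down in MSCs, and 2 up and 2 down in osteocytes. Plxna2, a plexin that pairs with neuropilins, fell by 1.34 in MSCs and by 1.89 in osteocytes. Plxnd1, an endothelial semaphorin receptor, fell by 1.31 in osteocytes and, by less than 2-fold, in MSCs (log2 fold change -0.86, FDR = 1.66e-07). Sema3f, a semaphorin that binds neuropilins, was called up in osteocytes (0 to 9 counts with vehicle and 7 to 50 with FG-4592, overlapping). Tek, the angiopoietin receptor, was called up in MSCs (5 to 11 counts with vehicle and 9 to 55 with FG-4592, overlapping).

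Of 9 adrenomedullin relatives and receptors, 5 could be tested, with 2 up and 1 down in each cell type. Adm2, the gene of the related peptide intermedin, had 0 counts in vehicle-treated MSCs and 94 to 130 in treated MSCs, at least 104-fold higher (against a floor of 3 counts over the condition). In osteocytes it had 0 to 9 counts with vehicle and 107 to 139 with FG-4592 (FDR = 2.13e-05). Adm2 passed the minimum for testing only through FG-4592-treated libraries and had to differ there. Ackr3, a scavenging receptor that takes up adrenomedullin, rose by 2.60 in MSCs and 1.87 in osteocytes. Ramp2, which turns the receptor Calcrl into an adrenomedullin receptor, fell by 2.37 in MSCs and by 1.37 in osteocytes. In MSCs it had 35 to 53 counts with vehicle and 2 to 17 with FG-4592.

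Among 32 vasoactive genes, of which 20 could be tested, 4 were called up and 4 down in MSCs, and 7 up and 1 down in osteocytes. Apln, the ligand apelin, rose from between 267 and 322 to between 4066 and 4714 counts in osteocytes (log2 fold change 3.87, FDR = 5.69e-15) and by 2.10 in MSCs. Its responses differed by 1.76 (FDR = 3.16e-08), in the direction of Vegfa. Hmox1, the heme oxygenase that yields carbon monoxide, rose by 3.34 in MSCs and 2.54 in osteocytes. Ptgis, the prostacyclin synthase, rose by 1.91 in osteocytes and had at most 6 counts in MSC libraries. Ednra, an endothelin receptor, fell by 2.89 in MSCs (30 to 74 counts with vehicle and 3 to 9 with FG-4592). Its log2 fold change in osteocytes was 0.40 (FDR = 0.348).

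Of 20 other secreted angiogenic factors, 17 could be tested, with 1 up and 2 down in MSCs and 3 up and 2 down in osteocytes. Esm1, the gene of the secreted proteoglycan endocan, moved in opposite directions in the cell types, and the responses differed by 4.47 (FDR = 1.08e-05). It fell in MSCs from between 17 and 38 to between 1 and 11 counts (FDR = 0.00183) and rose in osteocytes from between 7987 and 12510 to between 42008 and 49328 counts (FDR = 9.28e-10). Fgf1 rose by 1.34 and Hgf fell by 1.13 in osteocytes. In MSCs Hgf stood at 158 ± 7 CPM with vehicle and 82.8 ± 8.6 with FG-4592. Of 14 inhibitors, 13 could be tested, with 1 up and 2 down in MSCs and 2 up and 3 down in osteocytes. Thbs1, thrombospondin-1, rose by 2.03 in osteocytes and by 0.50 in MSCs, and Timp3, which blocks VEGF binding to KDR, rose by 1.31 and 1.95. Vash2 fell by 1.35 in osteocytes, although it is known to promote vessel growth. Isg15, an interferon-stimulated gene, fell by 2.11 in osteocytes and by 1.85 in MSCs.

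**Figure D4:**
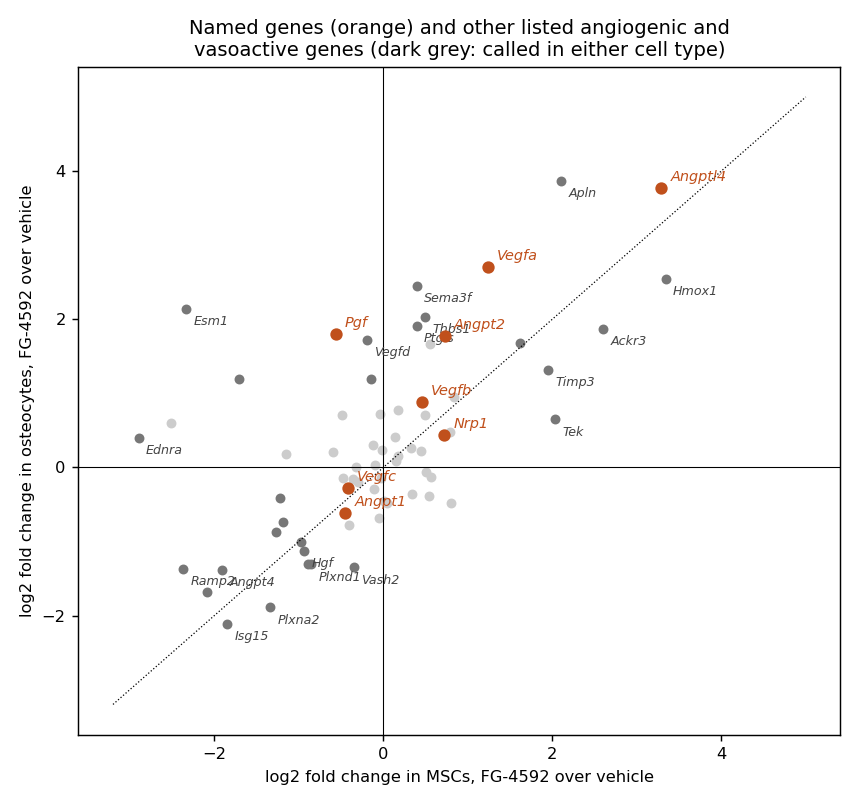
Log2 fold change of FG-4592 over vehicle in MSCs (horizontal) and osteocytes (vertical) for 8 of the 10 genes (orange) and 60 further listed genes above the counting floor (dark grey where called in either cell type); the dotted line marks equal responses. Vegfa, Pgf, Vegfd, Apln and Esm1 lie above it, and of these Pgf, Esm1 and Vegfd (-0.20) are left of 0 in MSCs.

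The closest profiles over the 12 libraries were sought among 11252 or 11253 protein-coding genes that averaged 100 counts or more in their highest condition, by the root mean square (RMS) difference of centred log2 CPM. For Vegfa they were Zbtb7c (0.20) and Hbegf (0.22), the latter an EGF receptor ligand. Pgf was nearest to Tprg (0.18) and Ninl (0.23). Angptl4 was nearest to AU021092 (0.34) and Ticam2 (0.39). Vegfc resembled Usp11 (0.16) and Ptch1 (0.16), the hedgehog receptor, and Vegfb resembled Xdh (0.09) and Pttg1ip (0.10). Nrp1 resembled Akap9 (0.10) and Hist1h2bc (0.10), and Angpt1 resembled Hsf2 (0.07) and Akap17b (0.07). The smallest differences of the genes with few counts were 0.34 for Angpt2 (Fau), 0.69 for Adm (Tmem119) and 0.89 for Flt1 (Pcdh10).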

How the data were processed

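The 10 genes and all gene lists were chosen with earlier results of these data known. Per the paper's methods, mRNA libraries were sequenced as paired reads, mapped to mm10 with STAR 2.7.2a, and counted on Gencode M22 genes with featureCounts (Subread 1.6.2) with a limit on mapping quality and no strand option, a pair being counted for every gene it overlaps. The authors deposited raw counts per gene and library, not normalized, and all 12 columns were used. Groups followed the labels for cell type and treatment, which do not say whether replicates were separate cultures, so p-values measure only the spread between these samples.

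Genes that exceeded 10 counts in 3 or more libraries were fitted in edgeR 4.0.16 (R 4.3.3) with TMM factors, 1 mean per condition and the quasi-likelihood test, with 8 residual degrees of freedom, and p-values were adjusted over all 16484 genes (Benjamini-Hochberg). Standard errors were derived from the F statistic. The fit was tested on simulated data. Levels are CPM on TMM-scaled totals, and counting intervals (95%) and floors cover counting error only. Profiles used a prior count of 2. Named genes outside the 10 were, per list, up to 4 with the largest change among those that were called in either FG-4592 comparison and averaged 100 counts or more in their highest condition, and the 2 nearest profiles per gene. Alternatives were RLE factors, library size alone, no filter, DESeq2 1.42.0, a replicate block, removal of genes with shared exonic bases, and each library left out, to which counting ratios with a library left out were added after seeing the data. Upstream windows came from RefSeq, and figures from matplotlib 3.10.9. 1 gene of the lists counts in their totals but is not reported here. The ATACseq data were not analysed here.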

Additional observations from a re-analysis of the deposited data

Results flagged for a closer look

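By the FDR alone, without the 2-fold limit, the response to FG-4592 differed between the cell types for 5 of the 10 genes in the interaction test in edgeR, where 24.3% of all genes tested passed. With the 2-fold limit, 2 of the 10 differed, Vegfa and Pgf. The log2 response in osteocytes minus that in MSCs was 1.47 for Vegfa and 2.36 for Pgf. It was 0.42 for Vegfb, 0.48 for Angptl4 and -0.29 for Nrp1, which had the greater response in MSCs. All 5 genes were higher in the 3 libraries of FG-4592-treated osteocytes than in any other library. Of the 5, Pgf passed the FDR in opposite directions in the cell types, and the other 4 rose in both.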

How the results depend on the processing

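Counts of calls among the 10 genes were compared under 6 alternatives and with each of the 12 libraries left out. Under RLE factors, library size alone and removal of genes with shared exonic bases each count stayed within 1.5 times its value, and under DESeq2 and no filter the number with a greater response in osteocytes became 3, through Adm. Leaving out 1 library, the number called up stayed at 2 in MSCs and ran from 4 to 5 in osteocytes, 3 to 3 for osteocytes against MSCs in vehicle, 4 to 6 in FG-4592 and 2 to 3 for the difference. The number called lower ran from 0 to 1 for osteocytes against MSCs in vehicle (Angpt2, -1.69, FDR = 0.0355, without replicate 2 of vehicle-treated osteocytes) and stayed at 0 in the other comparisons. Single fold changes turned sign when 1 library was left out for the response of Flt1 in osteocytes (-1.57 to 0.54), for Angpt1 between the cell types in vehicle (-0.0541 to 0.0575, with positive values of 0.04, 0.02, 0.06 and 0.02) and for Angpt2 between the cell types in FG-4592 (-0.33 to 0.15, with positive values of 0.15 and 0.05), none of which had passed the test. Without division by length, the share of Vegfa in MSCs was 51.4% with vehicle and 71.3% with FG-4592, and in osteocytes it was 58.3% and 80.6%. Per length, with 1 library left out, it ran from 33.0% to 34.9%, 52.7% to 53.8%, 38.6% to 40.8% and 66.4% to 67.7%, in the same order.

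Replicate numbers did not pair the libraries: deviations of same-numbered vehicle and treated libraries correlated between -0.0419 and 0.0406, and 1 of 6 correlated best with its own number. With the replicate block the numbers called up were 2, 5, 3, 6 and 2, as without it, and 0 were called down. At this depth, Adm, Flt1 and Angpt2 rested on at most 109 counts per library.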

Other observations

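These genes of the lists fell outside the naming rule and were chosen after their values were seen. Nos2, the inducible nitric oxide synthase, had 0 counts in the 3 libraries of vehicle-treated osteocytes and 44, 60 and 82 in treated osteocytes, at least 60.9-fold higher against the floor of 3 counts over the condition. It passed the minimum for testing only through FG-4592-treated libraries and had to differ there. In MSCs it had 0 to 1 counts with vehicle and 7 to 35 with FG-4592. Kng2, a kininogen gene and thus a source of the vasodilator bradykinin, fell in MSCs from between 774 and 850 to between 245 and 309 counts and rose in osteocytes from between 10944 and 13656 to between 26926 and 31427 counts. Its log2 fold changes were -1.71 and 1.19, and the responses differed by 2.90 (FDR = 2.04e-10). Edn1, the vasoconstrictor endothelin-1, was called up in both cell types, by 1.62 in MSCs and 1.68 in osteocytes, with 17 to 27 counts in osteocytes given vehicle and 27 to 109 in those given FG-4592. The responses of its receptor gene Ednra, which fell in MSCs, differed between the cell types by 3.30 (FDR = 0.000422).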
